A study of Mus musculus with 16 samples.

Results

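Inwardly rectifying potassium channels (Kir channels, encoded by the Kcnj genes) carry potassium ions into cells more easily than out of them and hold the resting membrane potential near the potassium equilibrium. In the spinal cord, Kir channels of astrocytes take up potassium released by active neurons, G protein-gated Kir channels dampen neurons when inhibitory receptors are active, and ATP-sensitive Kir channels act in the mural cells of blood vessels. A channel is a tetramer, and several members reach the membrane or gain their full conductance in combination with a partner from the same family.

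The 8 members described here are Kcnj10, Kcnj16, Kcnj3, Kcnj6, Kcnj9, Kcnj8, Kcnj2 and Kcnj13, out of 55487 listed genes, 15 of which carry a Kcnj name. The set was chosen on the Kcnj3 values in Cluster 7 of the authors' clustering, which differed between the genotypes in some mice. For that reason the genotype difference in Cluster 7 is given as a description with no test, and nothing else is supported with it.

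Single cells were sequenced from the mouse cervical spinal cord around a dorsal column lesion, in 16 mice and 8 groups of 2 mice. The 8 groups are WT and cKO mice, each uninjured or at 1, 7 or 14 days (d) after the lesion. WT mice were Ryk+/+ with GFAPcreERT2, and cKO mice were Rykfl/fl with GFAPcreERT2, a conditional knockout of Ryk, a receptor for Wnt proteins. All groups were 8 to 10 weeks old and of both sexes. The methods give tamoxifen on 7 days from 5 days before the operation, so WT mice carried the same Cre and had the same drug. The paper describes the uninjured mice as analysed 14 d after the knockout and does not state whether they had an operation without a lesion. Cre was driven by the human GFAP promoter, which limits the model to cells in which that promoter is active, and the paper describes the mice labelled Sham as uninjured.

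The count table held 18203 cells, and 41193 genes had at least 1 unique molecular identifier (UMI), the count of a distinct RNA molecule. Total counts per mouse ran from 536263 UMIs in WT 1 d replicate 1 to 9008729 UMIs in cKO 7 d replicate 2, apart from WT 1 d replicate 2, which had 1 cell with 266 UMIs and entered no comparison of levels. That left WT at 1 d with 1 mouse. A set of 4 mice, replicate 1 of WT 1 d, WT 7 d, cKO 1 d and cKO 7 d, had shallow libraries with a median of 414, 414, 421 and 548 UMIs per cell, against 1040.5 to 3637 in the other mice with more than 1 cell. In 6 mice, each a replicate 2, the cell names gave another condition than the sample title. They were WT 1 d (names giving WT 14 d), WT 7 d (WT 1 d), WT 14 d (cKO 14 d), WT uninjured (cKO uninjured), cKO 14 d (cKO 7 d) and cKO uninjured (WT 7 d). Groups follow the titles below, and the result under the cell names is given where it changes a direction. Of 17937 distinct barcodes, 166 occurred in at least 2 libraries. Animal numbers also fell into a series below 10000, which included the 4 shallow libraries and replicate 1 of both uninjured groups, and a series of 10000 and above.

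Levels are given as CPM, the UMIs of a gene in 1000000 UMIs of the cells of a cluster in a mouse, for mice with at least 10 cells of that cluster. Intervals are 95% Poisson intervals and cover counting error only, and where a single mouse is named at 0 UMIs its floor is given, the level that 3 counts would have had. Levels of different genes are not compared with each other.

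Ryk, the knockout target, was measured first. In Clusters 2, 5 and 7 together, which the authors called astrocytes, Ryk stood at 123 and 54.0 CPM in the WT uninjured mice, 101 CPM in WT 1 d, 157 and 116 CPM in WT 7 d, and 105 and 108 CPM in WT 14 d. In the cKO mice it stood at 66.1 and 85.1 CPM uninjured, 23.0 and 69.0 CPM at 1 d, 90.1 and 119 CPM at 7 d, and 121 and 123 CPM at 14 d. The genotypes overlapped, and the value of 23.0 CPM rested on 1 UMI with an interval of 0.582 to 128 CPM. The deleted exons are not given in the sources used here, and counts at the 3′ end of a transcript need not include them, so Ryk counts do not check the knockout.

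The cell type labels were compared with marker lists. The 8 listed astrocyte markers had a summed mean of 15429 ± 2525 CPM in Cluster 5 (SD, n = 14 mice) and 11161 ± 1269 CPM in Cluster 7 (n = 15), most abundantly Slc1a2, the main glutamate transporter of astrocytes. Cluster 5 also held oligodendrocyte markers, at 10155 ± 6355 CPM, and neuronal markers, at 1696 ± 1153 CPM, against 1891 ± 656 and 259 ± 152 CPM in Cluster 7. Cluster 2, labelled astrocytes, held fewer astrocyte markers than Clusters 5 and 7, at 7759 CPM, and more oligodendrocyte markers, at 17180 CPM. Cluster 11, labelled oligodendrocyte precursor cells, held 4362 CPM of the markers of that type, against at most 547 CPM in the other clusters. Its oligodendrocyte markers stood at 6833 CPM, below the 35406 and 52682 CPM of Clusters 4 and 8. The label of Cluster 2 thus went against the data in part. Labels are kept below as names only, with the clusters labelled astrocytes called by number. Cluster 13, labelled Unk in the deposited table, held ependymal markers at 3476 CPM. The pericyte cluster held its markers at 12240 CPM beside 5996 CPM of endothelial markers.

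All 8 members were detected. Kcnj10 had 15556 UMIs, with at least 1 UMI in 5415 cells, or 29.7% of all cells. Kcnj3 had 5604 UMIs in 1631 cells, Kcnj16 had 1978 UMIs in 1344 cells, and Kcnj8 had 1425 UMIs in 462 cells. Counts were lower for Kcnj2, with 1334 UMIs, Kcnj6, with 1076, Kcnj9, with 312, and Kcnj13, with 181. These shares are at full depth and may include free RNA taken up with the droplets, which was not measured. The levels per cluster below therefore carry the description.

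**Figure D1:**
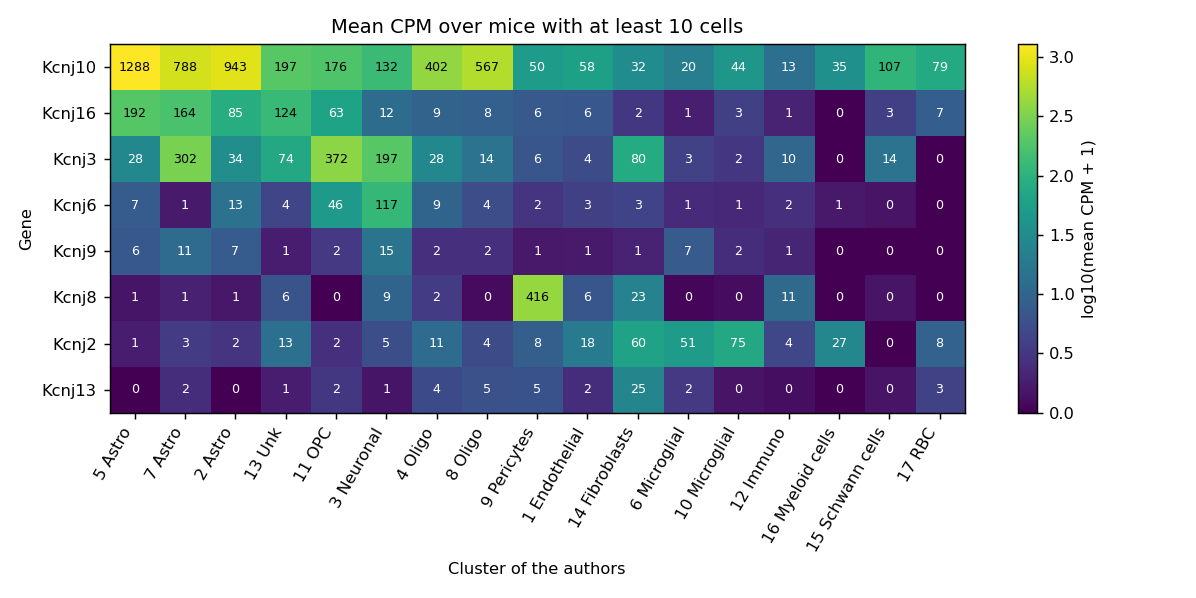
Heat map of the mean level of each of the 8 members (rows; CPM, over mice with at least 10 cells of the cluster) in each of the 17 clusters (columns), coloured on a scale of log10(mean CPM + 1). Kcnj10 was highest in Cluster 5, Kcnj8 in pericytes, Kcnj6 in neurons, and Kcnj3 in oligodendrocyte precursor cells.

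Kcnj10 encodes Kir4.1, the main potassium channel of astrocytes. Its mean level was 1288 ± 536 CPM in Cluster 5 (SD, n = 14 mice), 943 ± 220 CPM in Cluster 2 (n = 11) and 788 ± 138 CPM in Cluster 7 (n = 15). It was higher in Cluster 5 than in Cluster 2 in 10 of 11 mice, and higher in Cluster 2 than in Cluster 7 in 8 of 11 mice. The oligodendrocyte clusters followed, with 567 ± 173 CPM in Cluster 8 and 402 ± 78.1 CPM in Cluster 4. Cluster 13 at 197 ± 84.6 CPM and oligodendrocyte precursor cells at 176 ± 67.6 CPM did not differ beyond their spread, each being the higher in 5 of 10 mice. Neurons held 132 ± 72.2 CPM, endothelial cells 58.2 ± 68.7 CPM, pericytes 49.7 ± 50.1 CPM, and Clusters 10 and 6, labelled microglial, 43.9 ± 39.0 and 20.5 ± 19.6 CPM.

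In Cluster 5, Kcnj10 stood at 1018 and 1352 CPM in the WT uninjured mice and at 1257 CPM in the cKO uninjured mouse that had enough cells. After the lesion it stood at 295 CPM in WT 1 d, 657 and 2003 CPM in WT 7 d, and 1573 and 1628 CPM in WT 14 d. The cKO mice had 856 and 1285 CPM at 1 d, 640 and 2039 CPM at 7 d, and 1822 and 1609 CPM at 14 d. The 4 lowest values were those of the 4 shallow libraries, and at 7 d the replicates of each genotype lay further apart than the genotypes did. On the scale of the test, which divides by TMM-scaled totals, the uninjured mice had 1001, 2427 and 2281 CPM. The mean log2 difference between injured and uninjured mice was -0.83 ± 0.73, with an adjusted p = 1.00 by the edgeR quasi-likelihood test, in which p-values were adjusted by the Benjamini-Hochberg method over the genes tested. Here and below, the value after ± on a log2 difference is its size divided by the square root of the F statistic of the test. It is an approximate standard error worked back from the test, not a fitted one. The median over all genes tested was -0.25. With mice left out in turn the Kcnj10 difference ran from -1.14, without WT 7 d replicate 2, to -0.22, without WT 1 d replicate 1, and it was -0.43 without WT uninjured replicate 2. With the mice of animal numbers 10000 and above alone it was -0.12, and over all the alternatives it ran from -0.85 to -0.03. With those numbers alone, or without WT 1 d replicate 1, WT at 1 d had no mouse. The contrasts then left out the 1 d time point and averaged 7 d and 14 d only, here and below. The part of depth in the pooled value was not tested. The cKO minus WT difference after injury was 0.83 ± 0.73 (adjusted p = 0.970, same edgeR test), with values that overlapped, against a median of 0.30 over all genes tested. It was 0.08 without WT 1 d replicate 1, 0.29 without cKO 7 d replicate 2, 0.48 without cKO 1 d replicate 2 and 1.47 without WT 7 d replicate 2, and it was -0.01 when groups followed the cell names.

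In Cluster 7, Kcnj10 varied less, from 577 CPM in cKO 1 d replicate 1 to 1077 CPM in WT 7 d replicate 2, with a median of 741 CPM. The uninjured mice, at 815 and 1014 CPM in WT and 835 and 737 CPM in cKO, lay within the range of the injured mice. The log2 difference between injured and uninjured mice was -0.27 ± 0.23 (adjusted p = 0.843, edgeR quasi-likelihood test with Benjamini-Hochberg adjustment). It ran from -0.38, without WT 7 d replicate 2, to -0.15, without WT 1 d replicate 1, when each mouse was left out in turn.

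Kcnj16 encodes Kir5.1, which forms channels together with Kir4.1. Its level was 192 ± 56.5 CPM in Cluster 5 and 164 ± 57.9 CPM in Cluster 7, which did not differ beyond their spread, with Cluster 5 the higher in 9 of 14 mice. Cluster 13 followed at 124 ± 49.7 CPM, then Cluster 2 at 85.1 ± 46.3 CPM and oligodendrocyte precursor cells at 62.9 ± 24.8 CPM. In neurons it was 11.7 ± 8.97 CPM and in the oligodendrocyte clusters 8.73 ± 10.3 and 8.06 ± 11.5 CPM, lower than in the clusters labelled astrocytes. Across the 17 clusters the mean log2 levels of Kcnj10 and Kcnj16 had a Pearson r of 0.788, a description over clusters that share their libraries.

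Across mice, Kcnj16 in Cluster 5 ranged from 71.1 CPM in cKO 7 d replicate 1 to 281 CPM in WT 7 d replicate 1, both shallow libraries with 2 and 6 UMIs. In Cluster 7 it ranged from 26.5 CPM on 1 UMI in WT 7 d replicate 1 to 235 CPM in cKO uninjured replicate 1. The injured minus uninjured log2 difference was -0.64 ± 0.59 in Cluster 5 (adjusted p = 1.00) and -0.44 ± 0.29 in Cluster 7 (adjusted p = 0.790), both by the edgeR quasi-likelihood test with Benjamini-Hochberg adjustment. The Cluster 5 difference ran from -0.90, without cKO 7 d replicate 2, to -0.34, without WT 1 d replicate 1, when each mouse was left out in turn. The Cluster 7 difference ran from -0.92, without WT 7 d replicate 2, to -0.30, without WT 1 d replicate 1, and it was -0.15 when groups followed the cell names. Injured and uninjured mice overlapped in both clusters.

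The pair was also read cell by cell, with the cells of all mice in a cluster pooled. The shares are a description and were not split by mouse, group or genotype. In Cluster 5, Kcnj16 was found in 29.5% of cells with Kcnj10 and in 14.1% of cells without it. After each cell with at least 1000 UMIs was thinned to 1000 UMIs, the shares were 20.1% and 13.5%. In Cluster 7 the shares of 46.4% and 11.8% became 13.7% and 8.77% after thinning, so the difference there was smaller at equal depth. In Cluster 2 the shares were 12.9% and 4.84%, and 11.9% and 5.03% after thinning. Cluster 13 had 43.8% and 15.4%, and 13.8% and 13.6% after thinning. In oligodendrocyte precursor cells the shares of 26.5% and 7.64% became 1.64%, or 1 of 61 cells, and 5.81%, among the 319 of 637 cells with enough UMIs.

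Kcnj3 encodes Kir3.1, a subunit of the G protein-gated channels. Its mean level was 372 ± 317 CPM in oligodendrocyte precursor cells (n = 14 mice), 302 ± 427 CPM in Cluster 7 (n = 15) and 197 ± 153 CPM in neurons (n = 15). Cluster 7 did not differ from either of the others beyond its spread: oligodendrocyte precursor cells were above it in 9 of 14 mice, and it was above neurons in 5 of 15, with a median of 90.9 against 163 CPM. Oligodendrocyte precursor cells were above neurons in 11 of 14 mice. With the UMIs of all mice pooled, Cluster 7 had 585 CPM and oligodendrocyte precursor cells 578 CPM. Fibroblasts followed at 80.0 ± 157 CPM (n = 9) and Cluster 13 at 74.4 ± 95.3 CPM (n = 10), but in the 7 mice with enough cells of both, fibroblasts were above Cluster 13 in 0 of 7, at 21.2 against 89.2 CPM. The other clusters labelled astrocytes were low, with 33.5 ± 41.3 CPM in Cluster 2 and 27.5 ± 19.0 CPM in Cluster 5, and endothelial cells had 4.25 ± 6.77 CPM.

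In Cluster 7, the values that chose the set were as follows. The WT uninjured mice had 17.1 and 86.9 CPM of Kcnj3, and the cKO uninjured mice had 13.04 and 10.7 CPM, on 1 to 12 UMIs each. Among injured WT mice, WT 1 d had 0 UMIs with a floor of 96.6 CPM, WT 7 d had 53.1 and 20.6 CPM, and WT 14 d had 125 and 90.9 CPM. Among injured cKO mice, cKO 1 d had 108 and 670.2 CPM, cKO 7 d had 140.2 and 1138 CPM, and cKO 14 d had 960.4 and 1089 CPM.

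Replicate 2 of cKO 1 d and cKO 7 d and both cKO 14 d mice thus stood above every other mouse, on 195, 1133, 338 and 654 UMIs. The remaining injured cKO mice were shallow libraries with 3 and 5 UMIs, whose intervals of 22.3 to 316 CPM and 45.5 to 327 CPM overlapped those of WT mice. As a description, with no test, the mean difference between cKO and WT after injury was 3.74 on the scale of log2(CPM + 10). It was 3.07 when groups followed the cell names, under which replicate 2 of WT 14 d counts as cKO. It was 4.19 with animal numbers of 10000 and above alone, where WT at 1 d had no mouse. The series of animal numbers 10000 and above thus held 4 injured cKO mice with 670.2 to 1138 CPM, and 3 injured WT mice and 2 uninjured mice with 10.7 to 125 CPM.

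**Figure D2:**
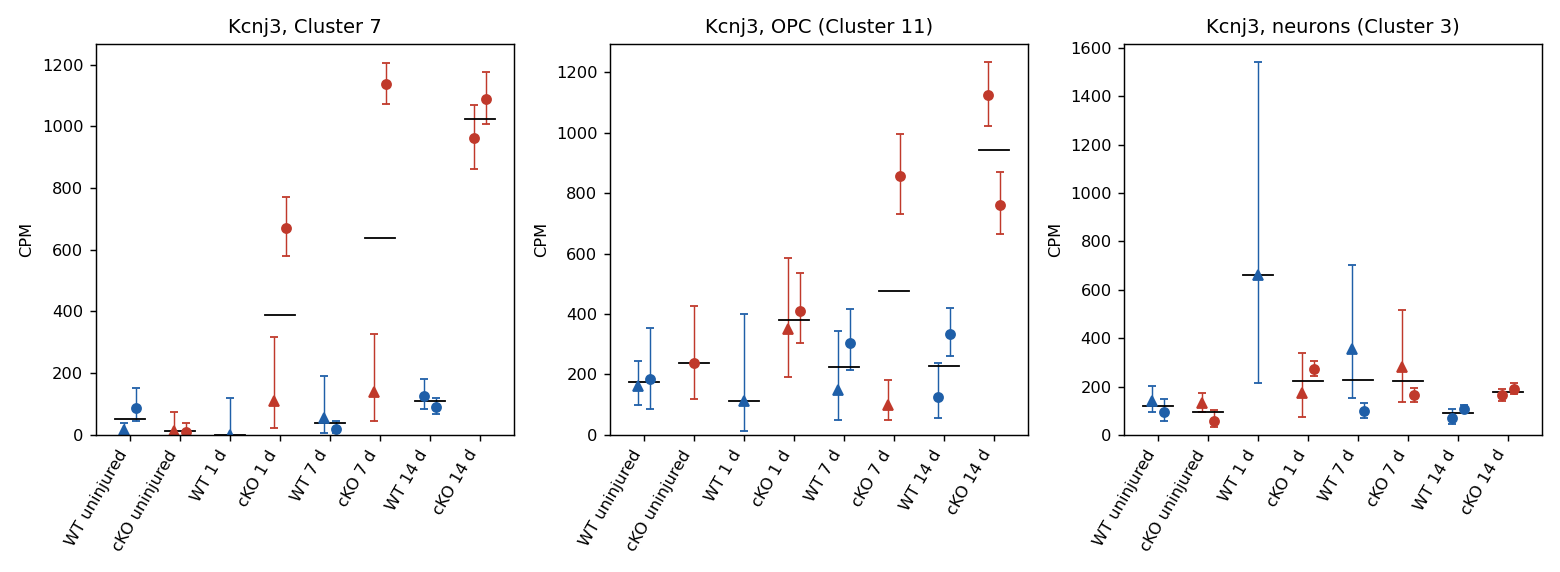
Kcnj3 level (CPM) of each mouse in clusters that hold Kcnj3, by group, with 95% Poisson intervals, group means as black lines, WT in blue and cKO in red, and circles for animal numbers of 10000 and above and triangles for lower ones. In Cluster 7, 4 cKO mice lay between 670.2 and 1138 CPM and the other mice between 0 and 140.2 CPM.

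The share of Cluster 7 cells with at least 1 Kcnj3 UMI was 73.1% in cKO 1 d replicate 2, 97.3% in cKO 7 d replicate 2, and 88.6% and 93.0% in the cKO 14 d mice. In the same mice, endothelial cells, where the mean Kcnj3 level was 4.25 CPM with UMIs in 11 of 15 mice, had it in 5.06%, 2.20%, 2.78% and 4.55% of cells. These mice are the ones with the high Cluster 7 values that chose the set, so the shares are a description. The part of free RNA in either cell type was not tested. Median depths were 3377, 8657, 7480 and 7195 UMIs per cell in Cluster 7 and 1049, 5377, 5899 and 5370 UMIs in endothelial cells. After thinning to 1000 UMIs per cell the Cluster 7 shares were 50.0%, 62.2%, 56.8% and 54.9%, and the endothelial shares 3.51%, 0.467%, 0.725% and 1.81%. The counts were thus spread over most Cluster 7 cells of these mice, with 3.18% to 14.2% of the Kcnj3 UMIs of a mouse in its highest cell.

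In the WT 14 d mice 14 of 70 and 12 of 62 Cluster 7 cells had Kcnj3, and 7.46% and 4.92% after thinning, at median depths of 2857 and 9814 UMIs. Endothelial cells of these mice had it in 0.476% and 0.935% of cells, at median depths of 2180 and 6841 UMIs. In WT 14 d replicate 2 a single cell held 26 of the 53 UMIs, or 49.1%. In the uninjured mice the shares were 2.22% to 7.69%, and 1.59% to 6.38% after thinning.

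Marker sums of Cluster 7 overlapped between the mice. Astrocyte markers summed to 9415 to 14021 CPM over the 15 mice, with 8 of 8 markers detected in each. In the 4 injured cKO mice numbered 10000 and above, in order of time, they summed to 11901, 11309, 11672 and 13602 CPM. Neuronal markers, most abundantly Meg3 on average, summed to 543, 157, 269.9 and 195 CPM in these 4 and 95.5 to 589 CPM over the 15. Markers of oligodendrocyte precursor cells, most abundantly Olig1 on average, summed to 192, 89.4, 119 and 112 CPM and ran from 53.1 to 248 CPM over the 15. The nearest protein-coding genes on either side of Kcnj3 stayed low: Galnt13, at a distance of 317660 bp, ran from 0 to 32.2 CPM, and Nr4a2, at 1508684 bp, from 0 to 2.01 CPM. Ryk in Cluster 7 was 117 and 138 CPM in replicate 2 of cKO 1 d and cKO 7 d and 165 and 153 CPM in cKO 14 d, inside the WT range of 123 to 239 CPM in all but the first. Of the other cKO mice, replicate 1 of cKO 1 d, cKO 7 d and cKO uninjured had 36.1, 56.1 and 78.3 CPM, below every WT mouse, on 1, 2 and 6 UMIs, and cKO uninjured replicate 2 had 192 CPM.

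Oligodendrocyte precursor cells had Kcnj3 in every mouse with enough cells. The uninjured mice had 160.4 and 186 CPM in WT and 239 CPM in cKO. Injured WT mice had 110.5 CPM at 1 d, 147 and 304 CPM at 7 d, and 125 and 334 CPM at 14 d. Injured cKO mice had 349 and 408 CPM at 1 d, 99.1 and 855 CPM at 7 d, and 1123 and 761 CPM at 14 d. The genotypes overlapped through cKO 7 d replicate 1, and the 3 highest values were those of both cKO 14 d mice and cKO 7 d replicate 2. The cKO minus WT log2 difference after injury was 1.72 ± 0.58, with an unadjusted p = 0.00781 and an adjusted p = 0.895 by the edgeR quasi-likelihood test with Benjamini-Hochberg adjustment, so it did not pass. It ran from 1.00, without cKO 7 d replicate 2, to 2.06, without WT 14 d replicate 2, when each mouse was left out in turn. The injured minus uninjured difference was 0.56 ± 0.62 (adjusted p = 0.965, same edgeR test). It ran from 0.14, without cKO 7 d replicate 2, to 0.93, without WT 1 d replicate 1, and it was 1.20 with animal numbers of 10000 and above alone. In these cells astrocyte markers, most abundantly Slc1a2, summed to 702 and 1757 CPM in the cKO 14 d mice and 2561 CPM in cKO 7 d replicate 2, within 527 to 2561 CPM over the 14 mice. Neuronal markers, most abundantly Meg3, summed to 540.0, 2139 and 1327 CPM in the same mice, within 414 to 2139 CPM over the 14. The part of RNA from other cells was not tested.

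In neurons, Kcnj3 stood at 142 and 93.9 CPM in WT uninjured mice and 130 and 59.0 CPM in cKO uninjured mice. Injured WT mice had 660.5 CPM at 1 d, 357 and 97.1 CPM at 7 d, and 71.1 and 107 CPM at 14 d. Injured cKO mice had 171 and 272 CPM at 1 d, 282 and 163 CPM at 7 d, and 163 and 190.5 CPM at 14 d. The values of 660.5 and 357 CPM rested on 5 and 8 UMIs of shallow libraries, and the WT and cKO values overlapped. The cKO minus WT log2 difference was 0.43 ± 0.34 (adjusted p = 0.769, edgeR quasi-likelihood test with Benjamini-Hochberg adjustment), while the median over all genes tested in neurons was 2.01. It was 0.76 without WT 1 d replicate 1, 0.27 without cKO 1 d replicate 2 and 0.26 without WT 7 d replicate 2. Between injured and uninjured mice the difference was 0.63 ± 0.30 (unadjusted p = 0.0471, adjusted p = 0.553, same edgeR test), against a median of -0.82. It was 0.38 without WT 1 d replicate 1 and 0.17 when groups followed the cell names. Neurons of WT 1 d were 18 cells of 1 mouse, with 7570 UMIs in all. Against uninjured mice, the median over all genes tested in neurons was -2.98 at 1 d, -0.03 at 7 d and 0.04 at 14 d. The median of -0.82 thus came with the 1 d time point. The genotype median of 2.01 includes the same WT 1 d mouse and was not taken by time point.

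In Cluster 13, Kcnj3 had 0 UMIs in WT 1 d, with a floor of 211 CPM, and stood at 69.0 CPM in WT 7 d replicate 1, and 7.73 and 66.7 CPM in WT 14 d. The cKO mice had 25.1 CPM in uninjured replicate 2, 0 UMIs in 1 d replicate 1, with a floor of 158 CPM, 129.7 CPM in 1 d replicate 2, 27.4 and 314 CPM at 7 d, and 104 CPM in replicate 2 at 14 d. In oligodendrocytes of Cluster 4 it stood at 94.5 CPM in cKO 1 d replicate 2, 36.3 CPM in cKO 7 d replicate 2, 70.7 and 48.1 CPM in cKO 14 d, and 0 to 28.2 CPM in the other mice. The class tested as oligodendrocytes summed Clusters 4 and 8. On the scale of the test, replicate 2 of cKO 1 d and both cKO 14 d mice had 78.9, 58.5 and 41.4 CPM in this class. There cKO 7 d replicate 2 had 21.3 CPM, below WT 7 d replicate 2 at 27.9 CPM. After injury, cKO minus WT in this class gave a log2 difference of 0.93 ± 0.69 (adjusted p = 1.00, edgeR quasi-likelihood test with Benjamini-Hochberg adjustment). It ran from -0.96, without cKO 7 d replicate 2, to 2.97, without WT 7 d replicate 2, and was 0.32 without cKO 1 d replicate 2 and 0.59 without WT 1 d replicate 1. In Cluster 5, Kcnj3 ran from 0 to 65.6 CPM. In fibroblasts it reached 486 CPM in cKO 14 d replicate 1, on 140 UMIs, of which 67.9% lay in a single cell, and it was 0 in 4 of 9 mice.

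Kcnj6 encodes Kir3.2, the G protein-gated subunit that can form channels alone or with Kir3.1. It was highest in neurons at 117 ± 77.5 CPM (n = 15 mice), which held 73.6% of its UMIs. Oligodendrocyte precursor cells followed at 46.2 ± 32.7 CPM and were lower than neurons in 12 of 14 mice. No other cluster had a mean above 13.4 CPM, the level of Cluster 2, and in Cluster 7 it was 0.681 ± 1.56 CPM, on 5 UMIs in all.

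In neurons, Kcnj6 stood at 118 and 34.6 CPM in WT uninjured mice and 86.6 and 44.2 CPM in cKO uninjured mice. Injured WT mice ranged from 84.6 to 357 CPM and injured cKO mice from 69.1 to 192 CPM, and the groups overlapped. The log2 difference between injured and uninjured mice was 0.32 ± 0.40 (adjusted p = 0.853, edgeR quasi-likelihood test with Benjamini-Hochberg adjustment), against a median of -0.82 over all genes tested in neurons. It was 0.03 without WT uninjured replicate 2, 0.21 without cKO uninjured replicate 2, 0.53 without WT 1 d replicate 1, 0.73 without WT uninjured replicate 1, and 1.03 with animal numbers of 10000 and above alone. The median of -0.82 carries the 1 d limit given for Kcnj3 in neurons. With the cells of all mice pooled, Kcnj6 was found in 32.4% of neurons with Kcnj3 and in 13.7% of neurons without it. After thinning the shares were 7.38% and 8.53%, so in neurons the share was not higher beside Kcnj3 at equal depth. In oligodendrocyte precursor cells the shares of 24.3% and 4.70% became 5.48%, or 4 of 73 cells, and 3.25% after thinning.

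Kcnj9 encodes Kir3.3, the remaining G protein-gated subunit measured among the members. Its highest mean was 14.9 ± 9.35 CPM in neurons, on 139 UMIs, followed by 11.2 ± 14.9 CPM in Cluster 7, on 46 UMIs. Neurons were above Cluster 7 in 8 of 15 mice, so these 2 neighbours did not differ beyond their spread. Cluster 2 had 7.15 ± 7.64 CPM and Cluster 6 had 6.91 ± 9.88 CPM, and neurons were above them in 9 of 11 and 10 of 14 mice. Cluster 7 was above Cluster 2 in 7 of 11 mice. In neurons it ranged from 0 to 29.4 CPM, with 0 UMIs in WT 1 d replicate 1 and WT 7 d replicate 1, where the floors were 396 and 134 CPM.

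Kcnj8 encodes Kir6.1, the pore of the ATP-sensitive channel of vascular mural cells. It was the most restricted member in distribution of UMIs: pericytes held 87.7% of them. Its level there was 416 ± 114 CPM (n = 15 mice), and pericytes were above fibroblasts, the next cluster by mean at 22.7 ± 60.5 CPM, in 9 of 9 mice. The fibroblast mean rested on 184 CPM from 1 UMI in WT 1 d replicate 1, the fibroblast median was 0 CPM, and fibroblasts were above Cluster 12, the next by mean, in 2 of 9 mice. In pericytes the uninjured mice had 433 and 318 CPM in WT and 483 and 168 CPM in cKO. Injured WT mice ran from 308 to 518 CPM and injured cKO mice from 332 to 614 CPM, and both overlapped the uninjured mice. The log2 difference between injured and uninjured mice was 0.33 ± 0.29 (adjusted p = 0.994), and it was -0.10 when groups followed the cell names. The cKO minus WT difference after injury was 0.21 ± 0.30 (adjusted p = 1.00), both by the edgeR quasi-likelihood test with Benjamini-Hochberg adjustment. The injury difference ran from 0.10, without cKO uninjured replicate 2, to 0.64, without cKO uninjured replicate 1, over the mice left out in turn, and the genotype difference from 0.09, without cKO 1 d replicate 2, to 0.44, without WT 1 d replicate 1.

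Kcnj2 encodes Kir2.1, a strongly rectifying channel of many cell types, microglia and endothelium included. Its level was 75.1 ± 66.2 CPM in Cluster 10 and 50.6 ± 28.3 CPM in Cluster 6, both labelled microglial, and 60.3 ± 52.9 CPM in fibroblasts. Neighbours in this order did not differ beyond their spread: Cluster 10 was above fibroblasts in 5 of 9 mice, and fibroblasts above Cluster 6 in 6 of 9. Cluster 10 was above Cluster 6 in 10 of 14 mice. Endothelial cells had 18.0 ± 10.6 CPM and were below Cluster 6 in 13 of 14 mice. In Clusters 5 and 7 it was 0.712 ± 1.19 and 2.62 ± 7.17 CPM.

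In Cluster 10, Kcnj2 had 38.9 CPM, on 1 UMI, in WT uninjured replicate 1. Replicate 2 of WT uninjured and cKO uninjured had 0 UMIs, with floors of 109.8 and 127 CPM. Injured WT mice with at least 10 cells had 0 UMIs at 1 d, with a floor of 122 CPM, 64.2 and 178 CPM at 7 d, and 29.6 and 148 CPM at 14 d. Injured cKO mice had 31.3 and 67.0 CPM at 1 d, 86.6 and 77.8 CPM at 7 d, and 198 and 132 CPM at 14 d. In Cluster 6 the uninjured mice with at least 10 cells had 38.8, 28.4 and 15.8 CPM, and injured mice had 27.4 to 122 CPM. For Clusters 6 and 10 together the log2 difference between injured and uninjured mice was 1.84 ± 0.65, with an unadjusted p = 0.0109 and an adjusted p = 0.320 by the edgeR quasi-likelihood test with Benjamini-Hochberg adjustment. It did not pass the threshold of 0.05, and it was 1.06 when groups followed the cell names. Of the UMIs of both clusters, Cluster 10 held 9.98%, 20.5% and 27.1% in the uninjured mice and 30.8% to 60.6% in the injured mice, and the part of this composition in the pooled difference was not tested. The cKO minus WT difference after injury was 0.13 ± 0.37 (adjusted p = 1.00, same edgeR test), and -0.24 with animal numbers of 10000 and above alone.

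Kcnj13 encodes Kir7.1, known from epithelia such as the choroid plexus. It had 43 of its 181 UMIs in fibroblasts, at 24.8 ± 38.3 CPM, with counts in 5 of 9 mice. The highest values there were 105 CPM in WT 14 d replicate 1 and 74.4 CPM in cKO 1 d replicate 2. Every other cluster had a mean of at most 5.00 CPM, and Clusters 2 and 5 had 0 UMIs.

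**Figure D3:**
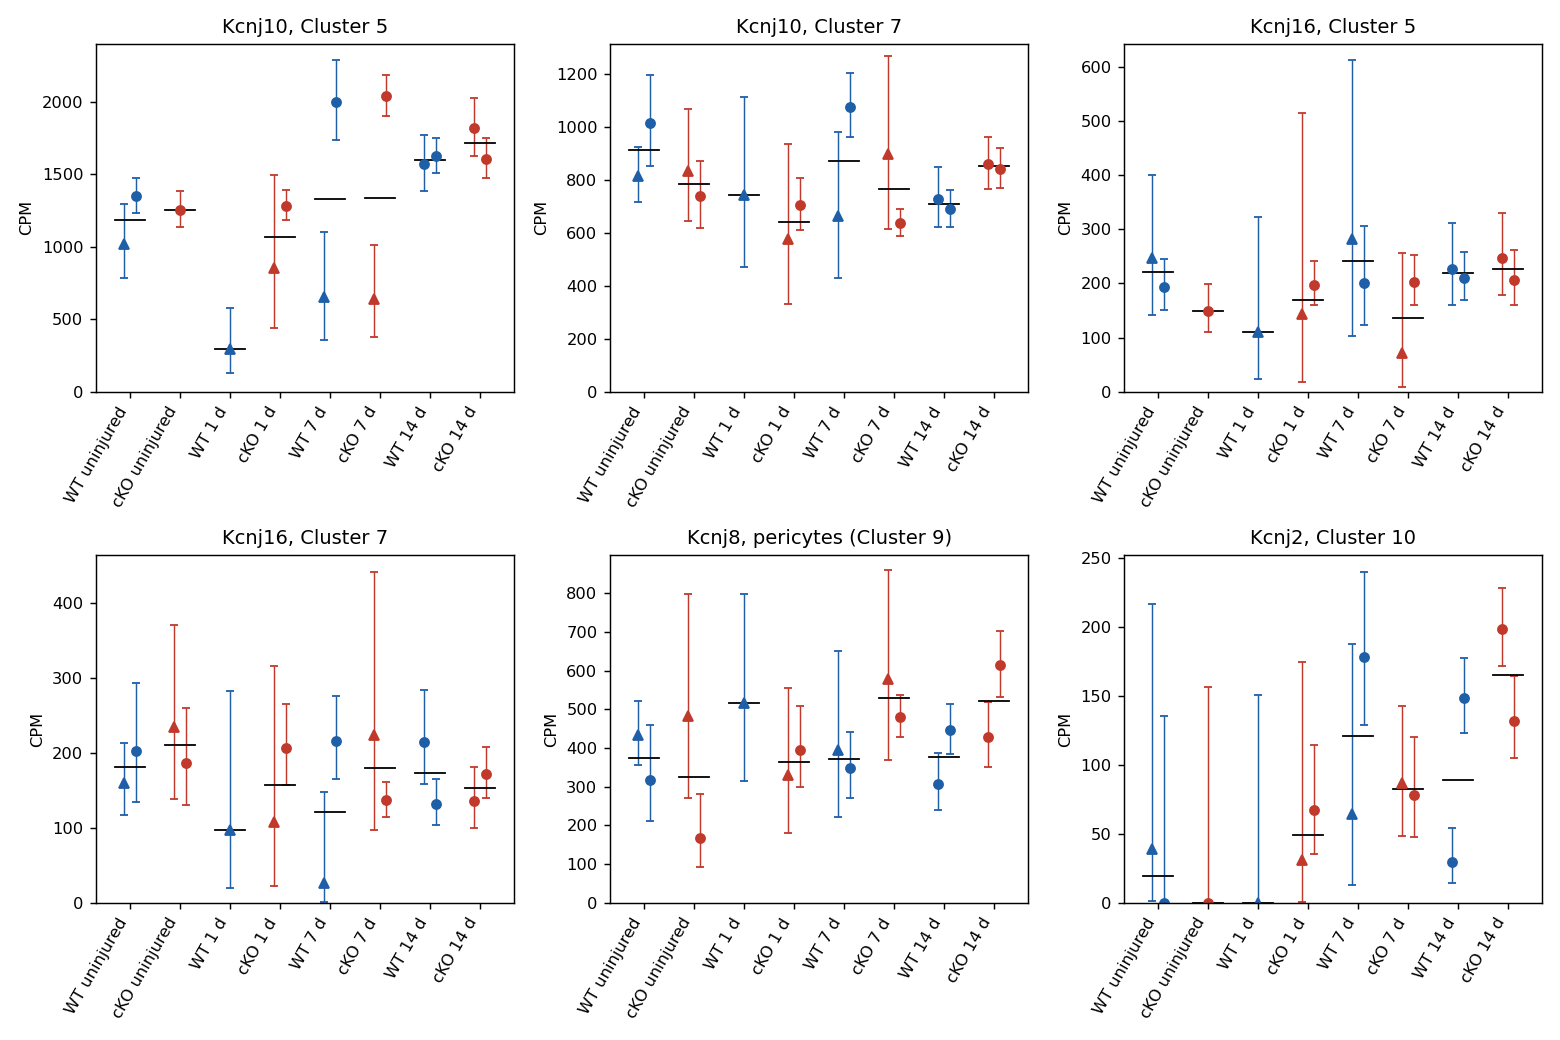
Level (CPM) of the other members in each mouse, in clusters where they were high, by group, with 95% Poisson intervals, group means as black lines, WT in blue and cKO in red, and circles for animal numbers of 10000 and above and triangles for lower ones. In Cluster 5, Kcnj10 ran from 295 to 2039 CPM, with the 4 shallow libraries lowest, and in pericytes Kcnj8 ran from 168 to 614 CPM.

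The tests between injured and uninjured mice were run in 8 classes of cells, with an edgeR model over the summed counts of each mouse. The filter on low counts passed 3 members in Cluster 5, 4 in Cluster 7, 4 in neurons, 3 in oligodendrocyte precursor cells, 2 in oligodendrocytes, 2 in Clusters 6 and 10, 4 in endothelial cells and 2 in pericytes. Kcnj13 passed in no class. Leaving out Kcnj3 in Cluster 7, the edgeR quasi-likelihood test called 0 of 23 member tests at a Benjamini-Hochberg adjusted 0.05, with 4 at an unadjusted p under 0.05, or 17.4% against 6.79% of the tests of all genes in the 8 classes, and 0 called by DESeq2. The share of all genes called was 0.226% in Cluster 7, 0.00977% in neurons, 0.129% in Clusters 6 and 10, and 0% in the other 5 classes, so few genes of any kind passed. The 4 were Kcnj2 in Clusters 6 and 10, Kcnj10 in endothelial cells, and Kcnj10 and Kcnj3 in neurons.

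By time point, in Clusters 5 and 7, edgeR called 0 members, leaving out Kcnj3 in Cluster 7, at 1 d, 7 d or 14 d against uninjured mice, with Kcnj3 in Cluster 5 at 14 d the 1 member at an unadjusted p under 0.05, beside 2.11% of all genes there, and 0 called by DESeq2. The share of all genes called in Cluster 7 was 0.188% at 1 d, 0.0377% at 7 d and 0.188% at 14 d. In Cluster 5 it was 0.0252% at 1 d and 0% at 7 d and 14 d.

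Between cKO and WT after injury, edgeR called 0 of 23 member tests, with 4 at an unadjusted p under 0.05 (17.4%, against 3.37% of the tests of all genes) and 0 called by DESeq2, against 0% of all genes in the 7 classes other than Cluster 7. The 4 were Kcnj10 in neurons, Kcnj10 and Kcnj3 in oligodendrocyte precursor cells, and Kcnj3 in endothelial cells. In Cluster 7 the share of genes called in that contrast was 0.0126%, from which nothing is read because the contrast chose the set. Between cKO and WT in uninjured mice, edgeR called 0 of 23 member tests, with 0 at an unadjusted p under 0.05 (against 3.49% of the tests of all genes) and 0 called by DESeq2, against 0% of all genes in each class.

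Kcnj10 in endothelial cells was set beside the astrocyte markers of the same cells. It stood at 8.75 and 210 CPM in WT uninjured mice, 23.0 and 134 CPM in cKO uninjured mice, 0 to 47.8 CPM in injured WT mice and 9.90 to 208 CPM in injured cKO mice. High values came from replicate 2 of WT uninjured, cKO uninjured and cKO 1 d. In the same endothelial cells the 8 astrocyte markers summed to 1777, 1397 and 1506 CPM, most abundantly Slc1a2, against 96.6 to 576 CPM in the other mice. The injured minus uninjured log2 difference was -2.78 ± 0.99 (unadjusted p = 0.0128, adjusted p = 0.663, edgeR quasi-likelihood test with Benjamini-Hochberg adjustment). It passed in 4 alternatives, in which genes of other kinds passed as well: without WT uninjured replicate 1, with 0.713% of all genes called, without the filter on low counts, with 0.566%, with the animal number series as a term, with 0.455%, and with numbers of 10000 and above alone, with 5.49%. The folds in these were -3.31, -2.70, -2.61 and -2.56. It was -0.85 without WT uninjured replicate 2, -1.59 without cKO uninjured replicate 2, and 0.42, the other direction, when groups followed the cell names. The genotype difference after injury was 3.42 ± 1.79 (adjusted p = 1.00, same edgeR test), with 0.31 without WT 1 d replicate 1 and 0.45 with numbers of 10000 and above alone. It was 3.41 without the filter, where it passed, with 0.125% of all genes called. The part of astrocyte RNA in it was not tested.

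Kcnj10 in neurons stood at 103 and 252 CPM in WT uninjured mice and 156 and 197 CPM in cKO uninjured mice. Injured WT mice had 0 to 132 CPM, the 0 being WT 1 d with a floor of 396 CPM, and injured cKO mice 21.4 to 245 CPM. The 4 shallow libraries had 0 to 113 CPM, on 0 to 4 UMIs. Astrocyte markers in the same neurons, most abundantly Slc1a2, summed to 357 to 733 CPM in the 4 shallow libraries and 901 to 2184 CPM in the other mice. Kcnj10 passed the test between injured and uninjured mice with the animal number series as a term, with 4.2% of all genes called, and with numbers of 10000 and above alone, with 6.21% called, and not with the plain model of all mice (-2.06 ± 0.84, unadjusted p = 0.0202, adjusted p = 0.453, edgeR quasi-likelihood test with Benjamini-Hochberg adjustment). The log2 differences were -2.31 and -0.97 in the models that passed, -0.62 without WT 1 d replicate 1 and -0.05 when groups followed the cell names, against a median of -0.82 over all genes tested with the plain model. After injury, cKO minus WT was 3.52 ± 1.52 (unadjusted p = 0.0273, adjusted p = 0.769, same edgeR test), against a median of 2.01, and it was 0.54 without WT 1 d replicate 1. The part of astrocyte RNA was not tested, and both neuronal medians carry the 1 d limit given for Kcnj3 in neurons. In oligodendrocyte precursor cells Kcnj10 ran from 110.5 to 177 CPM in injured WT mice and from 149.5 to 328 CPM in injured cKO mice, which overlapped, with a difference of 0.99 ± 0.46 (unadjusted p = 0.0432, adjusted p = 0.895, same edgeR test).

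Kcnj3 in endothelial cells rested on 54 UMIs. It was highest at 27.2 CPM, on 17 UMIs, in cKO 1 d replicate 2, and ran from 0 to 7.89 CPM in the other mice. The log2 difference between cKO and WT after injury was 3.23 ± 1.32 (unadjusted p = 0.0272, adjusted p = 1.00, edgeR quasi-likelihood test with Benjamini-Hochberg adjustment). Over the alternatives it was as low as 1.345. Without cKO 1 d replicate 2 or WT 1 d replicate 1 the gene did not pass the filter. With each of the other mice left out in turn, the difference ran from 3.05 to 4.52. The same endothelial cells of cKO 1 d replicate 2 held neuronal markers at 964 CPM, most abundantly Meg3, against 144 to 753 CPM in the other mice, beside the astrocyte markers at 1506 CPM. The part of RNA from other cells was not tested.

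The partners of these channels were taken from 4 lists. The list of potassium, water and glutamate handling has 14 genes, among them Aqp4, the water channel of astrocytic endfeet, and Slc1a2. Of its 101 tests over the 8 classes, edgeR called 0 higher and 0 lower between injured and uninjured mice, with 17 at an unadjusted p under 0.05, or 16.8% against 6.79% of the tests of all genes, and 0 called by DESeq2. Of the 17, 7 lay in endothelial cells, 4 in neurons and 3 in oligodendrocytes, where 7.13%, 8.92% and 6.41% of all genes were at such a p, with 1 each in Cluster 7, Clusters 6 and 10 and oligodendrocyte precursor cells. The median log2 difference of the list in endothelial cells was -1.59, against -0.07 over all genes tested there, and the astrocyte marker sums of those cells are given above. In oligodendrocytes it was -0.73 against -0.02, in neurons -1.10 against -0.82, and in Clusters 6 and 10 -0.34 against 0.09. In Cluster 5 it was -0.29 against -0.25, in Cluster 7 -0.20 against -0.14, in oligodendrocyte precursor cells 0.26 against -0.04, and in pericytes 0.07 against -0.05. The part of astrocyte RNA in these medians was not tested. The neuronal medians, here and between genotypes, carry the 1 d limit given for Kcnj3 in neurons. Between cKO and WT after injury edgeR called 0, with 3 (2.97%, against 3.37% of the tests of all genes) at an unadjusted p under 0.05 and 0 called by DESeq2. In uninjured mice edgeR called 0, with 2 (1.98% against 3.49%) and 0. The list's median for cKO minus WT after injury was 1.59 in endothelial cells, against 0.04 over all genes tested there. It was 2.64 against 2.01 in neurons, 0.65 against 0.09 in Clusters 6 and 10, and 0.29 against 0.06 in oligodendrocytes. In oligodendrocyte precursor cells it was 0.39 against 0.23, and in pericytes 0.175 against 0.07. In Cluster 7 it was 0.03 against 0.18, and in Cluster 5 -0.145 against 0.30.

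G protein signalling to Kir3 channels, a list of 16 genes with 106 tests, includes the GABA-B receptor genes Gabbr1 and Gabbr2. Between injured and uninjured mice edgeR called 0, with 5 (4.72% against 6.79%) at an unadjusted p under 0.05 and 0 called by DESeq2, and the median was 0.07 in Cluster 7, against -0.14 over all genes tested, and -0.05 in Cluster 5, against -0.25. It was -0.58 against -0.07 in endothelial cells and -0.44 against -0.82 in neurons. In oligodendrocytes it was -0.27 against -0.02, in Clusters 6 and 10 -0.17 against 0.09, in oligodendrocyte precursor cells -0.14 against -0.04, and in pericytes -0.13 against -0.05. Between cKO and WT it called 0 after injury, with 6 (5.66% against 3.37%) and 0, and 0 in uninjured mice, with 3 (2.83% against 3.49%) and 0. The list's median for cKO minus WT after injury was 0.16 in Cluster 7, against 0.18 over all genes tested there. It was 0.09 against 0.30 in Cluster 5, 0.295 against 2.01 in neurons and 0.33 against 0.04 in endothelial cells. In oligodendrocyte precursor cells it was 0.13 against 0.23, and in oligodendrocytes 0.17 against 0.06. In Clusters 6 and 10 it was 0.09 against 0.09, and in pericytes 0.14 against 0.07. The neuronal medians of both comparisons carry the 1 d limit given for Kcnj3 in neurons.

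The 7 Kcnj genes outside the set passed the filter in 2 tests, of which edgeR called 0, with 0 at an unadjusted p under 0.05 in each comparison and 0 called by DESeq2. The sulfonylurea receptors Abcc8 and Abcc9, the regulatory subunits of ATP-sensitive channels, gave 5 tests. Of these edgeR called 0 in each comparison, and DESeq2 called 0. Between cKO and WT after injury 1 (20%, against 3.37% of the tests of all genes) was at an unadjusted p under 0.05 by edgeR. In the other comparisons 0 were. The 1 test was in endothelial cells, with a log2 difference of 3.345, and the part of RNA from other cells was not tested.

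For Kcnj10 and Kcnj8, the genes with the most similar levels across the 17 clusters were sought among 14613 genes, by Pearson r of log2 mean levels. For Kcnj10 they were Slc6a9, at r = 0.95, Metrn, Aldoc, Mmd2 and Pxmp2, at r = 0.93. For Kcnj8 they were Carmn, at r = 0.984, Aoc3, Ndufa4l2, Ano1 and Tpm2, at r = 0.966. Among the G protein-gated members, Kcnj3 and Kcnj6 had r = 0.635, Kcnj3 and Kcnj9 had r = 0.547, and Kcnj6 and Kcnj9 had r = 0.557. Kcnj3 and Kcnj16, of different channel types, had r = 0.612, and Kcnj10 and Kcnj2 had r = -0.6.

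In the genome (mm10), several members lie side by side. Kcnj9 and Kcnj10 are neighbours on chromosome 1, 11891 bp apart on opposite strands, and their levels over clusters had a Pearson r of 0.436. Kcnj16 and Kcnj2 are neighbours on chromosome 11, 38195 bp apart on the same strand, with a Pearson r of -0.505 over clusters. Kcnj8 lies 16247 bp from Abcc9, the gene of its regulatory subunit, on chromosome 6. Kcnj3 spans 162176 bp on chromosome 2 and Kcnj6 spans 249066 bp on chromosome 16. Annotated genes on the opposite strand overlap Kcnj3 (Gm26794), Kcnj6 (Gm41505 and Gm22745), Kcnj9 (Gm36937) and Kcnj13 (Gigyf2). Whether counting used the strand is not given in the sources used here, so the counts may include reads of the overlapping genes. The annotation the authors counted with may also differ.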

How the data were processed

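The authors made 10x Genomics 3′ libraries, processed them with Cell Ranger on mm10, required over 200 genes and less than 25% mitochondrial UMIs of each cell, and clustered the cells with Seurat and Harmony. The deposited table held raw UMI counts per gene and cell, and the deposited cell table gave the counts per cell and the percent of mitochondrial UMIs. Doublet removal is not described in the sources used here, and none was done. The batch entry equalled the replicate number in 16 of 16 mice. Clusters are those the authors deposited. The members and lists were chosen with earlier results of these data known.

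Sums of UMIs for each class of a mouse entered edgeR 4.0.16 (TMM, filterByExpr, quasi-likelihood) over group means in R 4.3.3, with Benjamini-Hochberg adjustment over the genes tested in the class and a threshold of 0.05. The contrast averaged the time points that had mice of both genotypes. Named genes were the 8 members, the 5 genes most similar to each of Kcnj10 and Kcnj8 with at least 200 UMIs, and list genes past the test. Alternatives were DESeq2 1.42.0, no filter, a minimum of 30 cells, a replicate block, the conditions of the cell names, the animal number series as a term or the numbers of 10000 and above alone, and each mouse left out. Levels were also taken with the UMIs of the mice pooled and with cells thinned to 1000 UMIs. The test was also tested on simulated data. Residuals of replicates that share a number had a median correlation of 0.0961 in Cluster 5, 0.0179 in Cluster 7 and 0.251 in oligodendrocytes. Cluster 13 was not tested, because 1 uninjured mouse had enough of its cells. Levels were computed with Python 3.11.15, numpy 2.4.6 and pandas 2.3.3.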

Additional observations from a re-analysis of the deposited data

Results flagged for a closer look

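In 30 groups of mice, the highest and lowest value of a member in a cluster where it was high was compared with its neighbour relative to the range of the group (Kcnj3 in Cluster 7 was left out, since its values chose the set), and 3 groups had a mouse far from the others. Chance alone gives about 1 in 20 such groups. In neurons of injured WT mice, WT 7 d replicate 1 had 357 CPM of Kcnj6, on 8 UMIs, and the next highest 132 CPM. In Cluster 7 of injured WT mice, WT 7 d replicate 2 had 1077 CPM of Kcnj10 and the next highest 741 CPM. In Cluster 6 of injured cKO mice, cKO 1 d replicate 1 had 122 CPM of Kcnj2, on 8 UMIs, and the next highest 60.6 CPM. The causes were not tested.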

How the results depend on the processing

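Counts of members called by edgeR, or by DESeq2 as 1 of the alternatives, stayed at 0 in 200 of 206 combinations of comparison, class and alternative, and in 426 of 427 with a mouse left out. The exceptions were as follows. Between injured and uninjured mice, 1 member (Kcnj10) was called in neurons, both with the animal number series as a term, among 430 genes, and with animal numbers of 10000 and above alone, among 818. In endothelial cells 1 member (Kcnj10) was called without a filter, among 158 genes, and with the series term, among 50, and 2 members (Kcnj10 and Kcnj16) with numbers of 10000 and above alone, among 629. With mice left out in turn the endothelial count ran from 0 to 1, the 1 being Kcnj10 without WT uninjured replicate 1, among 78 genes. Between cKO and WT after injury, 1 member (Kcnj10) was called in endothelial cells without a filter, among 35 genes. In the other classes and comparisons the counts with mice left out ran from 0 to 0.

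Directions reversed for 7 values. Groups by cell names gave -0.0983 for Kcnj8 in pericytes after injury and -0.00783 for the genotype difference of Kcnj10 in Cluster 5. The genotype difference of Kcnj2 in Clusters 6 and 10 was -0.235 with numbers of 10000 and above alone, and with mice left out ran from -0.0345 (without WT 14 d replicate 1) to 0.416. That of Kcnj3 in Cluster 5 was 0.48 with all mice and ran from -1.44 (without cKO 1 d replicate 2) to 2.34 (without WT 7 d replicate 2). Groups by cell names gave 0.419 for Kcnj10 in endothelial cells after injury, against -2.78 with the titles. The genotype difference of Kcnj3 in oligodendrocytes ran from -0.956 (without cKO 7 d replicate 2) to 2.97 (without WT 7 d replicate 2). The causes were not tested. For Kcnj10 in neurons the injury difference of -2.06 was -0.62 without WT 1 d replicate 1, where the contrast averaged 7 d and 14 d only.

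Counts over all genes moved more. Between injured and uninjured mice, numbers of 10000 and above alone gave 818 genes in neurons against 1, 629 in endothelial cells against 0, 137 in Cluster 5 against 0 and 99 in Cluster 7 against 18. No filter gave 119 genes in Clusters 6 and 10 against 12. In Cluster 7 the cell names gave 20 genes between cKO and WT after injury against 1, and 22 between uninjured cKO and WT mice against 0. With mice left out the Cluster 7 counts ran from 2 to 58 after injury, from 0 to 97 at 7 d, both highest without WT uninjured replicate 1, and reached 28 between uninjured genotypes without WT uninjured replicate 2. Endothelial cells reached 78 genes after injury without WT uninjured replicate 1, and neurons 44 without cKO 1 d replicate 2. With the replicate as a block, Cluster 7 gave 27, 30 and 31 genes at 1, 7 and 14 d against 15, 3 and 15.

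Pooling all mice moved the mean level of Kcnj3 in oligodendrocyte precursor cells from 372 to 578 CPM and of Kcnj2 in Cluster 10 from 75.1 to 132 CPM. Kcnj13 in fibroblasts moved from 24.8 to 8.33 CPM when thinned and to 40.1 CPM with at least 30 cells. Depth limited the counts of the 4 shallow libraries, and WT at 1 d rested on 1 mouse. With a minimum of 30 cells, oligodendrocyte precursor cells had too few uninjured mice for a value.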
